A study of Mus musculus with 5 samples.

Results

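Norrin, Wnt and R-spondin signaling was examined in injured mouse retina through 9 genes (Ndp, Rspo2, Fzd4, Lrp5, Tspan12, Lef1, Axin2, Nkd1 and Ccn4), out of 25655 gene symbols in the count table. The 9 genes were chosen by symbol for their place in the pathway, at a time when their levels in these same retinas were already known. Their differences between Sorbinil and DMSO are therefore given as a description, without a test. All 9 genes were found in the table and all 9 passed the filter on low counts, which left 14992 genes for the fit. Retinas of wild-type C57BL/6 mice, 8 to 10 weeks old at surgery, were taken 7 days after optic nerve crush (ONC), in which the nerve behind one eye is pinched with forceps. Mice of the DMSO group (n = 3, replicates 1, 2 and 3) received the vehicle, and mice of the Sorbinil group (n = 2, replicates 1 and 3) received 10 mg/kg of Sorbinil, an aldose reductase inhibitor, by intraperitoneal injection from 24 h before ONC and then daily. Every retina compared here was injured, so the values hold no uninjured baseline. The study used both sexes, and the labels do not give the sex of a retina.

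Norrin, encoded by Ndp, is a secreted ligand made mainly by Müller glia in the retina. It is not a Wnt protein, but it binds the receptor frizzled-4 (Fzd4) on endothelial cells together with the co-receptor Lrp5, and Tspan12 is a tetraspanin that strengthens this complex. The signal stabilizes β-catenin, which enters the nucleus and binds LEF/TCF factors such as Lef1. In the retina this pathway is known for building the capillary beds and for keeping the blood-retina barrier. R-spondins such as Rspo2 bind Lgr receptors and raise the amount of frizzled at the cell surface. Axin2 and Nkd1 are targets of β-catenin that dampen the signal, and Ccn4 is a secreted matricellular protein first described as a Wnt-1 induced gene.

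Total counts per retina ranged from 56096541 to 90288552. Sorbinil replicate 1 stood apart from the other 4 retinas, with a first principal component score of 75.8 compared to a range of -28.9 to -7.64 in the others. In this retina 2605 genes were at least 2-fold below the DMSO mean, compared to 137 in Sorbinil replicate 3. The levels of the 9 genes are therefore shown for the Sorbinil retinas separately, and the log2 ratios of the 9 genes are given with and without replicate 1. Levels are given as CPM, the counts of a gene scaled to library size with TMM factors. A log2 ratio is that of the Sorbinil over the DMSO group from the fit, with its standard error (SE). The labels name no batch.

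Per kilobase of exon, Ccn4 had the highest level of the 9 genes in DMSO retinas, at 7.27 ± 0.91 CPM per kb (SD, n = 3). Axin2 followed at 4.83 ± 0.17 and Ndp at 4.18 ± 0.64 CPM per kb, and these overlapped each other but neither Ccn4 nor the genes after them. Next were Fzd4 (2.73 CPM per kb), Nkd1 (2.43), Lrp5 (2.01) and Tspan12 (1.83), where each overlapped the next in the order. Lef1 (0.221 ± 0.051 CPM per kb) and Rspo2 (0.200 ± 0.016 CPM per kb) lay far below the others and overlapped each other. In the Sorbinil retinas Rspo2 (0.578 CPM per kb) stood above Lef1 (0.0959 CPM per kb), and these no longer overlapped. Ccn4 also had the highest level there, at 14.4 ± 3.66 CPM per kb (SD, n = 2).

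**Figure D1:**
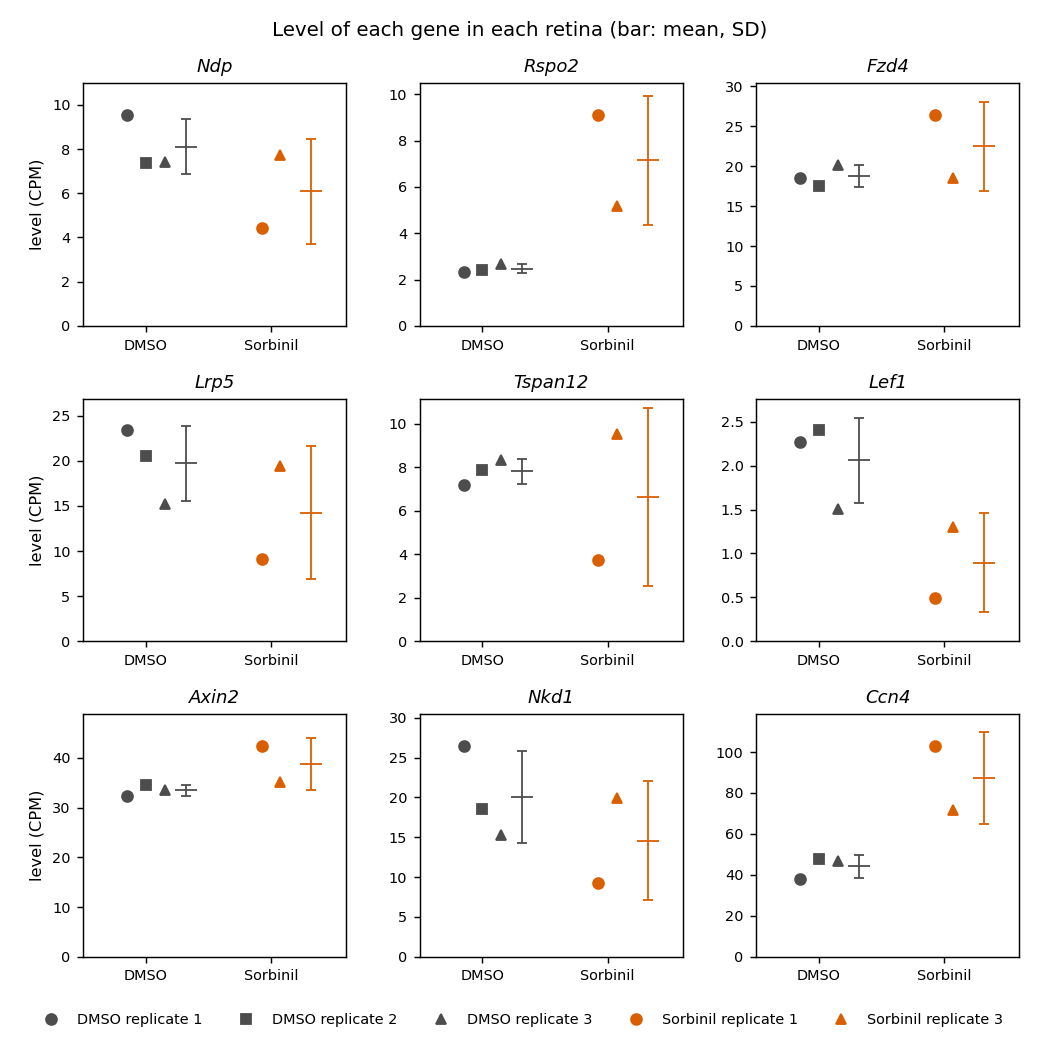
Level of each of the 9 genes in CPM (vertical axes, each starting at 0) in 3 DMSO and 2 Sorbinil retinas, with a bar for the mean and SD of each group. Rspo2 and Ccn4 were higher in each Sorbinil retina than in any of the DMSO group and Lef1 was lower, while for Ndp, Lrp5, Tspan12 and Nkd1 replicate 1 lay below the DMSO retinas and replicate 3 did not.

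Of the ligands, Rspo2 was higher in each Sorbinil retina and Ndp overlapped between the groups. Rspo2 (ENSMUSG00000051920, GRCm39 chromosome 15 from 42877439 to 43034706, minus strand), the R-spondin that amplifies Wnt signals, measured 2.31, 2.41 and 2.68 CPM in DMSO replicates 1, 2 and 3. It measured 9.11 CPM in Sorbinil replicate 1 and 5.19 CPM in Sorbinil replicate 3. Both Sorbinil retinas were above every DMSO retina, and the DMSO retinas lay close together. The group means were 2.47 ± 0.19 CPM with DMSO and 7.15 ± 2.78 CPM with Sorbinil (mean ± SD, n = 3 and n = 2), a log2 ratio of 1.53 (SE 0.29.) Its level was 3.67-fold that of the DMSO mean in replicate 1 and 2.09-fold in replicate 3. These differences exceeded those of 99.8% and 99.4% of the genes tested in the same retinas. Since Rspo2 was chosen with its levels known, nothing is read from these ranks. Behind the levels were 223, 193 and 149 counts for DMSO, and 479 and 352 for Sorbinil. Rspo2 had the highest log2 ratio of the 9 genes. Without Sorbinil replicate 1 its log2 ratio was 1.08, and without replicate 3 it was 1.89.

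Rspo2 also took a larger part of its own family. Of the summed level per kilobase of the 4 R-spondin genes, it made up 15.6%, 16.9% and 23.4% in the DMSO retinas, compared to 75.0% in Sorbinil replicate 1 and 30.2% in Sorbinil replicate 3. Rspo4, which had the highest level of the family in DMSO retinas, had 2.24, 2.13 and 1.37 CPM with DMSO and 0.514 and 1.93 CPM with Sorbinil. The share in replicate 1 moved with a higher Rspo2 level and a lower Rspo4 level, and in replicate 3 mainly with Rspo2.

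Ndp (ENSMUSG00000040138, chromosome X from 16751756 to 16778013, minus strand), which encodes norrin, measured 9.55, 7.38 and 7.41 CPM in the DMSO retinas. The Sorbinil retinas had 4.41 CPM in replicate 1 and 7.75 CPM in replicate 3. Replicate 1 was below all DMSO retinas, whereas replicate 3 lay between them, so the groups overlapped. The means were 8.11 ± 1.24 CPM with DMSO and 6.08 ± 2.36 CPM with Sorbinil (mean ± SD, n = 3 and n = 2), with a log2 ratio of -0.41 (SE 0.29). This was -0.06 without Sorbinil replicate 1 and -0.88 without replicate 3.

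Among the receptor components, Fzd4 (ENSMUSG00000049791, chromosome 7 from 89053563 to 89062342, plus strand), the norrin receptor, had 18.5, 17.5 and 20.2 CPM with DMSO and 26.4 and 18.5 CPM with Sorbinil. Only replicate 1 was above the DMSO retinas. The log2 ratio was 0.26 (SE 0.19), and without replicate 1 it turned to -0.0052. Of the 10 frizzled genes, Fzd4 was the fourth highest per kilobase in DMSO retinas. It made up 6.13% ± 0.71 (SD, n = 3) of their summed level with DMSO, then 11.5% in Sorbinil replicate 1 but 5.22% in replicate 3.

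Lrp5 (ENSMUSG00000024913, chromosome 19 from 3634821 to 3736643, minus strand), the co-receptor, measured 23.4, 20.6 and 15.2 CPM with DMSO, then 9.07 CPM in Sorbinil replicate 1 but 19.5 CPM in replicate 3. Its log2 ratio was -0.46 (SE 0.36), and -0.01 without replicate 1. Its paralog Lrp6 measured 89.5, 100.5 and 101.9 CPM with DMSO and 155.0 and 118.8 CPM with Sorbinil. Lrp6 was higher in both Sorbinil retinas, with a log2 ratio of 0.49 that did not reach 2-fold (raw p-value 0.0207, or 0.758 after adjustment, quasi-likelihood test of edgeR). Lrp5 thus made up 29.1%, 24.3% and 19.0% of the level per kilobase of both genes in DMSO retinas, 8.42% in Sorbinil replicate 1 and 20.5% in Sorbinil replicate 3, so that the groups overlapped.

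Tspan12 (ENSMUSG00000029669, chromosome 6 from 21771389 to 21852619, minus strand), the norrin co-activator, had 7.20, 7.89 and 8.35 CPM with DMSO. The Sorbinil retinas lay on either side of this range, at 3.75 CPM in replicate 1 and 9.55 CPM in replicate 3. The log2 ratio of -0.23 (SE 0.39) turned to 0.30 without replicate 1 and was -1.06 without replicate 3. Lrp5 and Tspan12 were thus at 0.468-fold and 0.482-fold of the DMSO mean in replicate 1, whereas in replicate 3 Lrp5 was level at 1.00-fold and Tspan12 was at 1.22-fold.

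Lef1 (ENSMUSG00000027985, chromosome 3 from 130903919 to 131018005, plus strand), the β-catenin partner in the nucleus, measured 2.26, 2.40 and 1.51 CPM in DMSO retinas. It measured 0.495 CPM in Sorbinil replicate 1 and 1.30 CPM in Sorbinil replicate 3. Both Sorbinil retinas were below every DMSO retina, with a gap between DMSO replicate 3 and Sorbinil replicate 3 that was smaller than the spread of the DMSO retinas. The means were 2.06 ± 0.48 CPM with DMSO and 0.896 ± 0.567 CPM with Sorbinil (mean ± SD, n = 3 and n = 2), a log2 ratio of -1.19 (SE 0.49.) Counts for DMSO were 219, 192 and 84, and those for Sorbinil only 26 and 88, so Lef1 was the least precise of the 9 genes in replicate 1. Leaving out Sorbinil replicate 1 gave a log2 ratio of -0.66, and leaving out replicate 3 gave -2.06.

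Within the LEF/TCF family, Lef1 made up 7.83%, 8.04% and 6.79% of the summed level per kilobase in the DMSO retinas. The share was 3.39% and 3.77% in Sorbinil replicates 1 and 3, which lay close together and below every DMSO retina. The other 3 genes of the family, Tcf7, Tcf7l1 and Tcf7l2, had log2 ratios of -0.32, -0.33 and 0.23, with all 3 overlapping between the groups. In Sorbinil replicate 3 they were 0.21, 0.28 and 0.62 above the DMSO mean (log2), and in replicate 1 they were at -1.18, -1.33 and -0.28.

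The 3 remaining genes are targets of the pathway, as Lef1 also is, and they did not move together. Ccn4 (ENSMUSG00000005124, chromosome 15 from 66763060 to 66795050, plus strand), the matricellular target, had 37.8, 47.8 and 46.9 CPM with DMSO, then 103.1 CPM in Sorbinil replicate 1 but 71.6 CPM in replicate 3. Both Sorbinil retinas were above every DMSO retina by more than the DMSO spread. The means were 44.2 ± 5.52 CPM with DMSO and 87.3 ± 22.3 CPM with Sorbinil (mean ± SD, n = 3 and n = 2). The log2 ratio of 0.98 (SE 0.20) lay just under 2-fold, and was 0.71 without replicate 1 and 1.22 without replicate 3. With 2607 to 5417 counts in each retina, Ccn4 was the member with the most reads.

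Axin2 (ENSMUSG00000000142, chromosome 11 from 108811169 to 108841609, plus strand), a scaffold of the β-catenin destruction complex, measured 32.3, 34.6 and 33.6 CPM with DMSO and 42.4 and 35.1 CPM with Sorbinil. Although both Sorbinil retinas were above every DMSO retina, replicate 3 exceeded the highest DMSO retina by less than the spread between DMSO retinas. The log2 ratio was 0.21 (SE 0.13), and 0.08 without replicate 1. Its share of the summed level per kilobase of Axin1 and Axin2 was 53.2% ± 2.43 (SD, n = 3) in DMSO retinas, and 55.3% and 55.4% in the Sorbinil retinas. The ranges of these shares overlapped.

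Nkd1 (ENSMUSG00000031661, chromosome 8 from 89247890 to 89324577, plus strand), a feedback inhibitor that binds Dishevelled, measured 26.5, 18.5 and 15.3 CPM with DMSO, the widest spread of the 9 genes between DMSO retinas (0.79 on the log2 scale). Sorbinil replicate 1 had 9.28 CPM, below every DMSO retina, and replicate 3 had 19.9 CPM, within their range. The log2 ratio was -0.46 (SE 0.39), and -0.0083 without replicate 1.

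**Figure D2:**
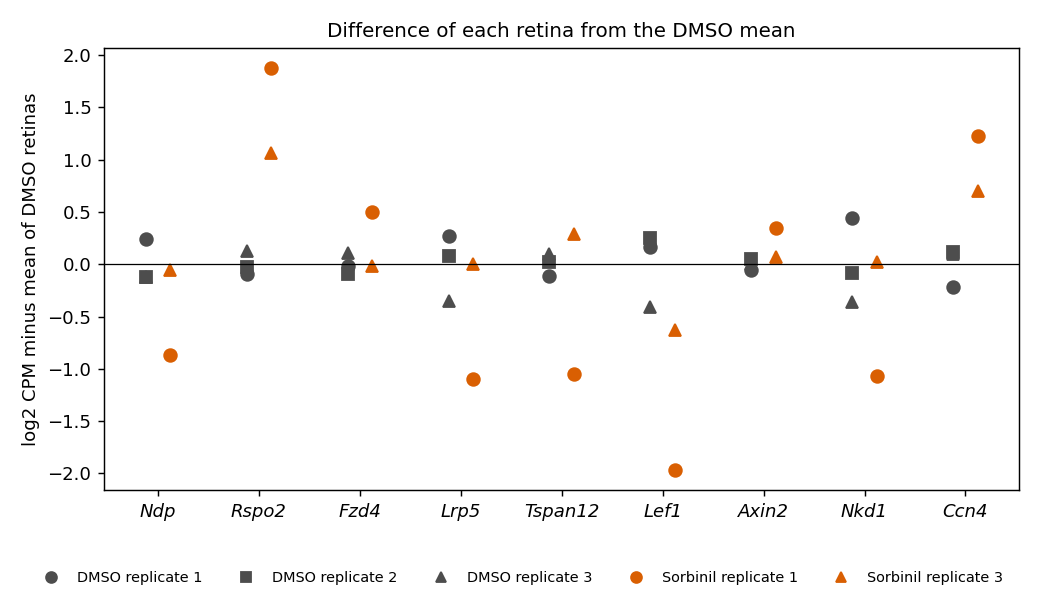
Difference in log2 CPM of each retina from the mean of the 3 DMSO retinas (vertical axis), for the 9 genes along the horizontal axis, with grey marks for DMSO and orange marks for Sorbinil. Rspo2 lay at 1.88 and 1.07 and Lef1 at -1.97 and -0.63 in Sorbinil replicates 1 and 3, while Nkd1, Lrp5 and Tspan12 were below -1 in replicate 1 only.

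Of the 9 genes, 3 (Rspo2, Ccn4 and Axin2) were higher in each Sorbinil retina than in any of the DMSO group, where 12.8% of all genes tested were. One gene, Lef1, was lower in both, as were 10.5% of all genes tested. The same 4 genes were separated in these directions under the 4 scalings of the counts. The other 5 genes overlapped between the groups. The median log2 ratio of the 9 genes was -0.23, compared to -0.0078 over all genes tested. For replicate 1 alone the median was -0.86, and for replicate 3 alone 0.02. Since the members were chosen with this contrast known, nothing is read from these counts.

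Promoter sequence was read from RefSeq (GRCm38.p6) for 6 of the 9 genes, in 9 windows, that is for all but Rspo2, Ccn4 and Lrp5. The 250 bases before each start site were searched on both strands for the 6-base core of the LEF/TCF recognition motif, CTTTGA, which reads TCAAAG on the other strand. Of 32851 mouse windows of this length, 13.8% held it. Of the 9 windows, 1 did, belonging to the last of 4 start sites of Lef1. It is shown beside the Axin2 window, which has no match. Lef1 and Axin2 are both β-catenin targets and lay on opposite sides of the DMSO retinas, so the pair was picked with its levels known. The Axin2 difference was not separable from the spread between retinas. Nothing is read from the contrast of the windows, and counts per gene do not show which start site was used. The Lef1 window is chr3:131156044-131156293 (plus strand) and holds the motif 180 and 120 bases before the start site, both in the orientation of the opposite strand. The Axin2 window is chr11:108920099-108920348 (plus strand). Capitals mark the motif.
Lef1: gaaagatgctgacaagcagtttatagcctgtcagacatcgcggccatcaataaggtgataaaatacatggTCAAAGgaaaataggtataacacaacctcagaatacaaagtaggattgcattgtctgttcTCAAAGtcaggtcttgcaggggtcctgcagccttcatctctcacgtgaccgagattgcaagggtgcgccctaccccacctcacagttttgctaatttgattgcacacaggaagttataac
Axin2: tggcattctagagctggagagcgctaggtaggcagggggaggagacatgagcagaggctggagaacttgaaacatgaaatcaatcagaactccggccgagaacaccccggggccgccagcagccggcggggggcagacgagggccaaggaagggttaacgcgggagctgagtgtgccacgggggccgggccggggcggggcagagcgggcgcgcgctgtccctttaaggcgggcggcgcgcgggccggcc
A match of these letters is a description of the sequence and not a bound site, and the missing matches concern only these windows.

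The rest of the pathway was read from 8 lists of 98 other genes, of which 83 could be tested. Genes were called at the threshold of the study, a raw p-value of at most 0.1 and at least 2-fold, which 1.35% of all genes tested passed as lower and 0.36% as higher in Sorbinil retinas. Of the 83 genes, 1 was called lower and 0 higher by edgeR's quasi-likelihood test, with 2 at a raw p-value under 0.05 (5.01% of all genes tested), and as shares these counts did not exceed the background. The lower gene was the ligand Wnt4, at 0.527, 0.338 and 0.450 CPM with DMSO and 0.133 and 0.265 CPM with Sorbinil. It had between 7 and 51 counts per retina, a log2 ratio of -1.11 (SE 0.47) and a raw p-value of 0.0564 (0.758 after adjustment, quasi-likelihood test of edgeR). Wnt4 was not called when Sorbinil replicate 1, DMSO replicate 1 or DMSO replicate 3 was left out, nor with the replicate block, with at least 10 counts in every retina, or when GC content and gene length entered as offsets. Over the 83 genes the median log2 ratio was -0.14, with -0.55 in Sorbinil replicate 1 and 0.07 in Sorbinil replicate 3.

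By role, the medians below 0 came with Sorbinil replicate 1 and were small or above 0 in replicate 3. The 11 Wnt ligands tested of 19 had a median log2 ratio of -0.35, with -1.01 for replicate 1 and -0.06 for replicate 3 against the mean of the DMSO retinas. For the 16 frizzled and co-receptor genes the median was -0.21 (-0.91 for replicate 1 and 0.20 for replicate 3), and for the 7 R-spondin, Lgr and E3 ligase genes tested of 8 it was -0.07 (-0.87 and 0.30). The 2 genes of ligand secretion, Porcn and Wls, had a median of -0.43 (-0.78 and -0.14). The 13 secreted and membrane inhibitors tested of 17 had -0.42 (-1.11 and 0.07), and the 4 other target genes tested of 6 had -0.43 (-0.86 and 0.08). The cytoplasmic β-catenin machinery (17 genes) had a median of 0.04 (0.15 and -0.01), and the nuclear factors (13 genes) had -0.0085 (-0.28 and 0.05). Apart from Wnt4, none of these genes passed the threshold. Of the 17 cytoplasmic genes, 5 were higher in each Sorbinil retina than in any of the DMSO group (Apc, Gsk3b, Btrc, Amer1 and Tnks), as were 12.8% of all genes tested, with log2 ratios between 0.15 and 0.42.

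Of the genes with the highest level in their lists, Gsk3b, the kinase that marks β-catenin for destruction, measured 375.9, 362.4 and 383.7 CPM in the DMSO retinas and 480.6 and 420.7 CPM in the Sorbinil retinas. Tle4, a corepressor that binds LEF/TCF factors, measured 83.6, 88.0 and 85.5 CPM in the DMSO retinas and 135.2 and 90.9 CPM in the Sorbinil retinas. Porcn, the enzyme that attaches the lipid of Wnt proteins, was lower in each Sorbinil retina, at 35.0, 31.9 and 30.2 CPM with DMSO against 22.6 and 27.9 CPM. The R-spondin receptor Lgr4 measured 66.5, 66.3 and 75.1 CPM in the DMSO retinas, and 80.1 and 79.7 CPM after Sorbinil. These 4 genes did not overlap between the groups, and their log2 ratios of 0.27, 0.40, -0.36 and 0.21 stayed under 2-fold.

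For the other abundant genes the groups overlapped. Dkk3, a secreted protein of the Dickkopf family, measured 1115, 868.8 and 803.4 CPM with DMSO, 276.2 CPM in Sorbinil replicate 1 and 882.0 CPM in replicate 3. The ligand Wnt2b measured 7.10, 6.15 and 5.49 CPM with DMSO, 1.598 CPM in Sorbinil replicate 1 and 6.91 CPM in replicate 3. Fzd5, the most abundant frizzled, measured 153.0, 132.6 and 124.6 CPM with DMSO and 98.0 and 168.4 CPM with Sorbinil. Cd44, a cell surface receptor for hyaluronan, measured 47.1, 47.6 and 34.4 CPM with DMSO and 25.4 and 52.6 CPM with Sorbinil. In Sorbinil replicate 1 all 4 genes were below every DMSO retina, and in replicate 3 none was, with Fzd5 and Cd44 above every DMSO retina there.

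A further list held 10 endothelial genes that are known to depend on norrin and β-catenin signaling or to mark its loss. Of these, 5 passed the threshold as lower in Sorbinil retinas and 0 as higher, compared to 1.35% and 0.36% of all genes tested, and their median log2 ratio was -1.19 (-2.22 for Sorbinil replicate 1 and -0.59 for replicate 3). Cldn5, the tight junction protein of the barrier, measured 7.87, 7.67 and 4.99 CPM with DMSO and 1.37 and 3.06 CPM with Sorbinil. Its log2 ratio was -1.62 with an SE of 0.42, and edgeR's quasi-likelihood test gave a raw p-value of 0.00934 (0.758 after adjustment). Abcb1a, an efflux pump of barrier endothelium, measured 7.60, 6.40 and 4.55 CPM with DMSO and 0.571 and 2.77 CPM with Sorbinil. Slc2a1, a glucose transporter, was the most abundant gene of this list and did not reach 2-fold. It measured 308.3, 300.2 and 347.7 CPM with DMSO and 260.3 and 276.0 CPM with Sorbinil. Tfrc, Sox7 and Mfsd2a had log2 ratios of 0.20, -0.08 and -0.90 and overlapped between the groups. Tfrc measured 123, 122 and 143 CPM with DMSO and 183 and 115 CPM with Sorbinil. In whole retina the levels of Slc2a1 and Tfrc cannot be assigned to endothelial cells. Cldn5 and Abcb1a passed the threshold whichever retina was left out, and 3 genes of the list did without Sorbinil replicate 1.

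The other 3 genes that passed the threshold were scarcer. Slc38a5, an amino acid transporter of retinal endothelium, had 164, 196 and 55 counts in the DMSO retinas against 4 and 47 in the Sorbinil retinas, or 1.70, 2.45 and 0.990 CPM and 0.0761 and 0.692 CPM. The endothelial transcription factor Sox17 had 98, 96 and 51 counts in the DMSO retinas against 3 and 37 in the Sorbinil retinas, and Sox18 had 116, 117 and 66 counts in the DMSO retinas against 9 and 50 in the Sorbinil retinas. For all 5 genes both Sorbinil retinas were below every DMSO retina. Log2 ratios were -2.12 (SE 0.86) for Slc38a5, -1.75 (SE 0.78) for Sox17 and -1.47 (SE 0.60) for Sox18. Raw p-values in edgeR's quasi-likelihood test were 0.0517, 0.0684 and 0.0522, each 0.758 after adjustment. Sox17 lost its call whichever DMSO retina was left out, and under library-size scaling. Omitting DMSO replicate 2 also removed the calls of Slc38a5 and Sox18. A minimum of 10 counts per retina excluded Slc38a5, Sox17 and Sox18 from testing. Plvap, which marks leaky vessels and is known to increase when norrin signaling is lost, measured 2.81, 2.88 and 3.19 CPM with DMSO and 1.58 and 2.21 CPM with Sorbinil, and did not reach 2-fold. Lower endothelial transcripts were known from earlier results of these retinas, so this count is no independent evidence. Of the 93 genes of the 9 lists, 0 stayed under 0.05 after adjustment in the quasi-likelihood test and the likelihood ratio test of edgeR and in the DESeq2 Wald test, while 4, 8 and 8 had a raw p-value under 0.05.

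**Figure D3:**
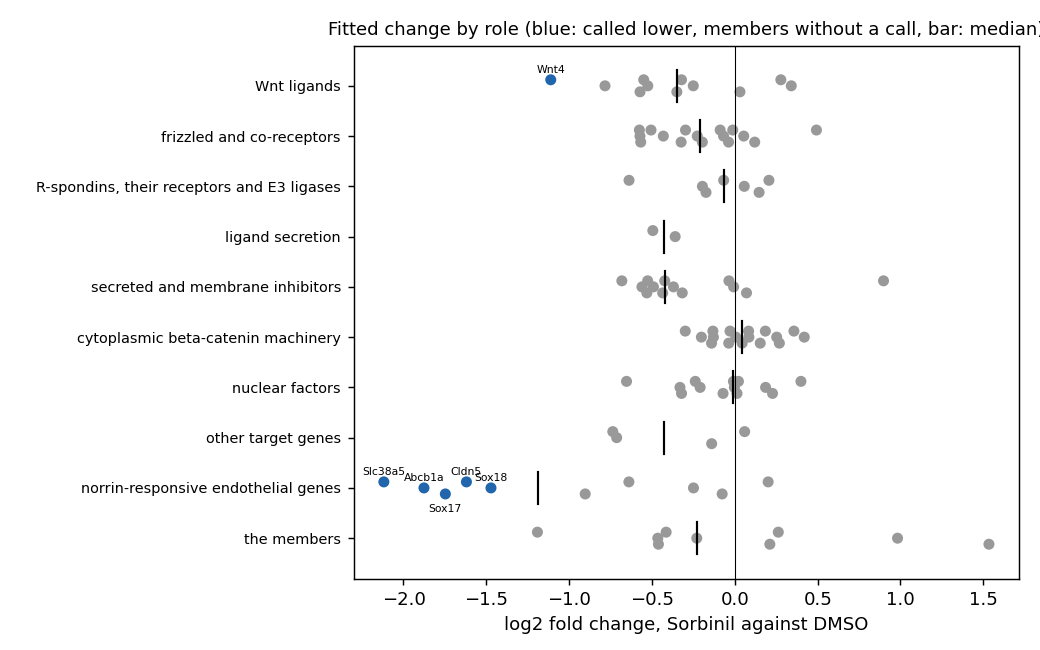
Fitted log2 ratio of Sorbinil against DMSO (horizontal axis) for each gene tested, by role in the pathway (rows), with a bar at the median of each list. Genes of the lists called lower at the study's threshold are blue and named, and 5 of these 6 belong to the norrin-responsive endothelial list, while the 9 members in the lowest row are drawn in grey without a call.

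Levels of cell type markers were read in the same retinas. All 12 endothelial markers, none of them in the pathway lists, had a lower fitted level in the Sorbinil retinas, with a median difference from the DMSO mean of -2.58 in replicate 1 and -0.74 in replicate 3 (log2). Of the 12 markers, 9 were below every DMSO retina in both Sorbinil retinas, as were 10.5% of all genes tested. Their summed level, most of it from Kdr and Flt1, was 314.2 to 490.9 CPM with DMSO. It was 164.0 CPM in Sorbinil replicate 1 but 416.8 CPM in replicate 3. In replicate 3 Kdr (276.7 CPM) and Flt1 (108.9 CPM) lay within the range of the DMSO retinas. The other endothelial markers were below every DMSO retina there, which the sum does not show. The 8 Müller glia markers summed to between 4597 and 5180 CPM with DMSO, 1744 CPM in replicate 1 and 4825 CPM in replicate 3. The 8 pericyte and smooth muscle markers summed to between 67.5 and 92.0 CPM with DMSO, 24.2 CPM in replicate 1 and 68.7 CPM in replicate 3. Median log2 differences from the DMSO mean in replicate 1 were -1.36 for Müller glia and -1.28 for pericyte and smooth muscle markers. Several other lists had similar values, with -1.36 for amacrine, -1.23 for bipolar, -1.46 for ganglion cell and -1.55 for astrocyte markers. The fall was smaller for microglia and macrophages (-0.89), pigment epithelium and choroid (-0.84) and horizontal cells (-0.73), and cone markers were higher (0.46). The lower levels in replicate 1 were thus not particular to Müller glia and pericytes. Rod markers were higher in replicate 1, at 112817 CPM against 68861 to 81089 CPM with DMSO, and lower in replicate 3, at 57600 CPM. Of the 13 marker lists only the endothelial one held genes past the threshold, with 7 lower, compared to 1.35% of all genes tested. As lower endothelial transcripts were known beforehand in these retinas, these endothelial counts are no independent evidence. None of the endothelial, Müller glia, pericyte and smooth muscle, or rod markers was at 0 in any retina. In whole retina, fewer cells of a type and less RNA per cell cannot be told apart, and the part of cell composition in the members' values was not tested.

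The 6 markers of fibroblasts of sclera and meninges, of which only Lum was at 0 in a retina, summed to between 6.92 and 11.7 CPM with DMSO, 4.72 CPM in replicate 1 and 23.5 CPM in replicate 3. Rspo2 and Ccn4 were higher in both retinas, so the sum of these markers moved with them in replicate 3 and against them in replicate 1. Not every marker followed the sum, as Dcn and Fbln1 stayed within the range of the DMSO retinas in both Sorbinil retinas.

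Read against the mean log2 level of the 12 endothelial markers, 9 of 9 genes were higher in each Sorbinil retina than in any of the DMSO group, as were 86.4% of all genes tested on this scale, where the markers themselves were lower, so that nothing is read from this count. Lef1 was nearest to level, at 0.16 in replicate 1 and 0.12 in replicate 3, where the DMSO retinas spanned -0.09 to 0.11. Rspo2 was farthest from level, at 4.01 and 1.81. Tspan12 was at 1.08 and 1.03, and Lrp5 at 1.04 and 0.75. Read against the 8 Müller glia markers instead, Ndp lay on opposite sides of the DMSO retinas (-0.08 to 0.08), at 0.40 in replicate 1 and -0.13 in replicate 3. On the same scale Lef1 was lower in both retinas (-0.71 and -0.70), Rspo2 (3.14 and 1.00) and Ccn4 (2.49 and 0.63) were higher, and the other 6 genes were not separated from the DMSO retinas in 1 direction. Over all genes tested, 13.4% were higher and 2.69% lower in both Sorbinil retinas on this scale.

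**Figure D4:**
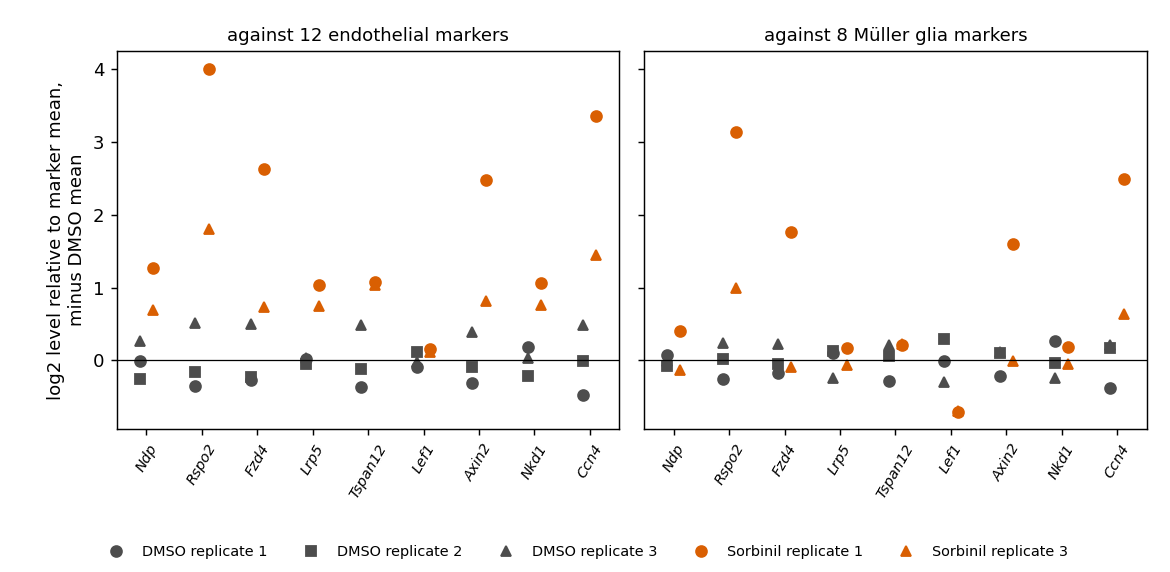
Log2 level of each of the 9 genes relative to the mean log2 level of 12 endothelial markers (left) or 8 Müller glia markers (right), minus the mean of the DMSO retinas, for each retina. Against endothelial markers, which were themselves lower with Sorbinil, Lef1 lay at 0.16 and 0.12 in the Sorbinil retinas, and against Müller glia markers Rspo2 and Ccn4 were above and Lef1 below every DMSO retina.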

How the data were processed

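Total RNA libraries of 5 injured retinas, reverse-stranded per the labels, were processed by the authors with CLC Genomics Workbench v22 (adaptor trimming and mapping to GRCm39). The table deposited by the authors holds raw counts per gene symbol. The annotation release, the use of strand and the handling of reads on several genes are not given in the sources used here. In GENCODE vM39, antisense lncRNA exons overlap those of Ccn4, Axin2, Lef1, Tspan12 and Lrp5, so that their counts are uncertain if strand was not used.

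These counts were fitted with edgeR 4.0.16 under R 4.3.3 (filterByExpr with minimum count 10, TMM factors, glmQLFit and glmQLFTest, Benjamini-Hochberg adjustment), after a check on simulated data. The standard error is the log2 fold change divided by the square root of its F statistic. Genes were called at the threshold of the study, a raw p-value up to 0.1 together with a change of 2-fold or more. A prior count of 2 was added for log2 CPM. No library was a repeat of another (lowest chi-square over its degrees of freedom between retinas 25.5), and each counted as 1 replicate. The replicates of a group were separate mice per the study. Exon lengths and positions came from GENCODE vM39, in which all 9 genes were found.

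The members, gene lists and tests were chosen with earlier results of these data known. All members are named, with every called pathway gene, the gene of highest mean CPM in each list, and the 2 genes most alike each member by root mean square difference of log2 CPM. Amer1, Apc, Btrc, Tnks, Rspo4, Lrp6, Lum, Kremen2, Mfsd2a, Wnt7b, Kdr, Flt1, Wls, Tcf7, Tcf7l1, Tcf7l2 and Plvap were named after their values were seen. So were Dcn, Fbln1, Tfrc and Sox7. Alternatives were DESeq2 1.42.0 size factors and Wald test, upper-quartile and library-size scaling, other filters and thresholds, the likelihood ratio test, a replicate block, leaving out each retina, and offsets for GC content and length, the last chosen after seeing the data. A retina left alone in its group was assumed to vary like the other group. A replicate of the Sorbinil group that the authors excluded after principal component analysis was not analysed here.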

Additional observations from a re-analysis of the deposited data

How the results depend on the processing

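Rspo2, Ccn4 and Axin2 had a higher fitted level and Lef1, Nkd1, Ndp and Lrp5 a lower one in the Sorbinil retinas under all 14 alternatives, while Fzd4 and Tspan12 changed sign in 1 alternative each, without Sorbinil replicate 1. The median log2 fold change of the members was between -0.88 (without Sorbinil replicate 3) and -0.0052 (without Sorbinil replicate 1) when each retina was left out. Over all genes, 203 were called lower and 54 higher. With at least 10 counts in every retina these were 119 and 29, and 2 of the 6 lower pathway genes were still called, on fewer genes tested. With no filter 115 genes were higher, and with library size only 33, a scaling that moved the median of all genes to -0.11. With the limit on the raw p-value set to 0.05, 129 genes were lower, and 2 genes of the pathway lists. With 0.1 as the limit on the adjusted value of edgeR's quasi-likelihood test, 0 genes were lower, 0 higher and 0 in the pathway lists, although 751 genes had a raw p-value under 0.05. The likelihood ratio test put 14 genes under an adjusted 0.05 and the DESeq2 Wald test 21. With offsets for GC content and length, 1 pathway gene (Kremen2) was called higher and Wnt4 was not called. When each retina was left out, 129 to 2656 genes were lower and 35 to 247 higher, and 3 to 39 pathway genes were lower and 0 to 1 higher, the highest counts being those without Sorbinil replicate 3, where only replicate 1 stood for the treatment. The pathway gene called higher was Kremen2 there, and Wnt7b without Sorbinil replicate 1. The cause of these changes was not tested.

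The replicate numbers 1 and 3 occur in both groups. Deviations of same-numbered retinas from their group means had correlations of -0.24 and -0.12 over genes. With 2 Sorbinil retinas these deviations mirror each other, so the 2 correlations are not independent and cannot show that pairing is absent. The numbers were not taken as pairs in the main fit, and a replicate block was run as an alternative. With the replicate block, 153 genes were lower and 50 higher, 6 pathway genes were lower (Mfsd2a in place of Wnt4), and the median of the members was -0.37. With 2 retinas against 3, a small difference such as that of Axin2 was not separable from the spread between retinas.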

Other observations

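The genes whose pattern over the 5 retinas was most like that of each member were sought among 13053 other genes with a mean of at least 1 CPM, by the root mean square difference of centred log2 CPM. Over 5 retinas, of which Sorbinil replicate 1 stands apart, many genes share a pattern, and the likeness is a description only. Lef1 was nearest to Cxcl12 (0.07) and Tek (0.07), the latter an endothelial receptor. Cxcl12 measured 21.97, 22.2 and 15.3 CPM with DMSO and 5.35 and 13.7 CPM with Sorbinil. Ndp was nearest to Gsg1l2 (0.03) and Nr2e1 (0.03), a nuclear receptor of retinal progenitors and Müller glia, which measured 15.8, 11.7 and 11.99 CPM with DMSO and 7.36 and 13.1 CPM with Sorbinil. Lrp5 was nearest to Gap43 (0.02), a growth cone protein, and Ttl (0.02). Nkd1 was nearest to Fam174b (0.04) and Ablim3 (0.05), and Tspan12 to Cys1 (0.04) and Gsta4 (0.05).

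The genes with a higher level had other neighbours. Rspo2 was nearest to Col5a3 (0.19), a fibrillar collagen chain with 2.69, 3.52 and 3.44 CPM with DMSO and 13.2 and 8.91 CPM with Sorbinil, and to Tec (0.26), at distances larger than for any other member. Ccn4 was nearest to Prtg (0.06) and to the mitochondrially encoded mt-Cytb (0.09), which measured 1737, 2267 and 2404 CPM with DMSO and 4716 and 3851 CPM with Sorbinil. Axin2 was nearest to Smarcad1 (0.0084) and Krr1 (0.0095), and Fzd4 to Ppara (0.01) and Cdkl3 (0.02). Among the members themselves, Nkd1 and Lrp5 differed least from each other (0.11), as did Axin2 and Fzd4 (0.11), and Rspo2 and Lef1 differed most (1.55).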
